A study of Bos taurus with 13 samples.

Results

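bta-miR-221 and bta-miR-222, the 2 members described here, are miRNAs of a single cluster, and they were taken by name from the miRNA lists of extracellular vesicle (EV) small RNA from bovine follicular fluid. Both were listed in all 13 pools, among 311 miRNAs listed for any group and 262 listed for all 5 groups. The animals were Holstein Friesian cows after calving and heifers, and the fluid was aspirated from large follicles. Transient cows (TCs) were in negative energy balance at weeks 5 and 6 post-calving (3 pools from 11 cows) and in positive balance at weeks 9 and 10 (3 pools from 7 cows). Always negative cows (ANCs) and always positive cows (APCs) kept their status throughout and were sampled at weeks 5 and 6, each as 2 pools from 2 cows. The heifers, which had not calved, were in positive balance and gave 3 pools from 8 animals. Which cows went into which pool is not given. The p-values therefore measure the spread between pools, which may be partly technical.

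In mammals miR-221 and miR-222 are cut from a common transcript of the X chromosome and share the seed, the stretch of bases that pairs with target mRNAs. In the RefSeq gene table of the ARS-UCD2.0 assembly, MIR221 and MIR222 were on the same chromosome with 0 genes between them. They are known for repressing CDKN1B, the cell cycle inhibitor p27Kip1, and KIT, the receptor of stem cell factor. KIT is carried by oocytes and theca cells, whereas its ligand is made by granulosa cells, and the exchange drives follicle growth. In vessels, both miRNAs are abundant in endothelium and smooth muscle and restrain the angiogenic response of endothelial cells.

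The deposited values are CPM, that is, reads divided by an effective library size so that libraries can be compared, here with a scaling factor called TMM that trims the most extreme miRNAs. The whole reads behind them numbered 145030 to 421435 per library with a median of 327359. A miRNA with 3 reads stood at 7.9 to 19.0 CPM as deposited, far below both members in every pool. Because a read count is sampled, each value carries a counting error, and that error is the only one covered by the intervals on reads given here.

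bta-miR-221 was an upper-range miRNA of the vesicles and bta-miR-222 a mid-range one. bta-miR-221 had 329 to 1976 reads per pool, 0.148% to 0.542% of a library, and ranked between 37th and 78th among the 273 to 296 listed miRNAs. bta-miR-222 had 15 to 107 reads, 0.00675% to 0.0301% of a library, and ranked between 127th and 186th. Counting error was therefore 2.25% to 5.51% for bta-miR-221 and 9.67% to 25.8% for bta-miR-222.

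To set levels side by side across groups, 1 TMM scaling was computed for all 13 pools from the 262 miRNAs that every group lists. On that scale, and in the order of the replicate numbers, bta-miR-221 was 5308, 5376 and 5298 CPM in the early TC pools (weeks 5 and 6). It was 2571, 5522 and 3048 CPM in the late TC pools (weeks 9 and 10). The ANCs had 1303 and 2986 CPM. The early TC pools were nearly equal, whereas the highest and lowest pools of the late TCs and of the ANCs stood far apart. The APCs had 2954 and 6600 CPM, and the heifers 4645, 4746 and 3752 CPM. The lowest pool of all was replicate 1 of the ANCs and the highest was replicate 2 of the APCs, 5.06 times apart.

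By group mean ± SD, bta-miR-221 was 5328 ± 42.6 CPM in the early TCs (n = 3), 4777 ± 2578 in APCs (n = 2), 4381 ± 547 in heifers (n = 3), 3714 ± 1585 in the late TCs (n = 3) and 2145 ± 1190 in ANCs (n = 2). Every pair of neighbours in this order overlapped in its pools, with log2 differences of 0.02 to 0.83 and exact two-sided permutation p-values of 0.4 to 1. The order is thus not resolved between neighbours. The small spread of the early TCs, 0.799% of the mean, lies under the counting error and depends on the scaling, since with total reads in place of TMM these pools were 5342, 5315 and 4252 CPM.

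bta-miR-222 was 161, 304 and 110 CPM in replicates 1, 2 and 3 of the early TCs. It was 70.5, 204 and 89.3 CPM in the late TCs. The ANCs had 59.4 and 134 CPM. In each of these groups replicate 2 was the highest pool. The APCs had 99.5 and 140 CPM, and the heifers 237, 262 and 162 CPM. The group means ± SD were 220 ± 52.3 CPM in heifers (n = 3), 192 ± 101 in the early TCs (n = 3), 121 ± 72.5 in the late TCs (n = 3), 120 ± 28.8 in APCs (n = 2) and 96.7 ± 52.7 in ANCs (n = 2). Neighbours overlapped again, with exact two-sided permutation p-values of 0.4 to 0.9. The ANCs were thus last for both miRNAs, but the leading group differed, being the early TCs for bta-miR-221 and the heifers for bta-miR-222.

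**Figure D1:**
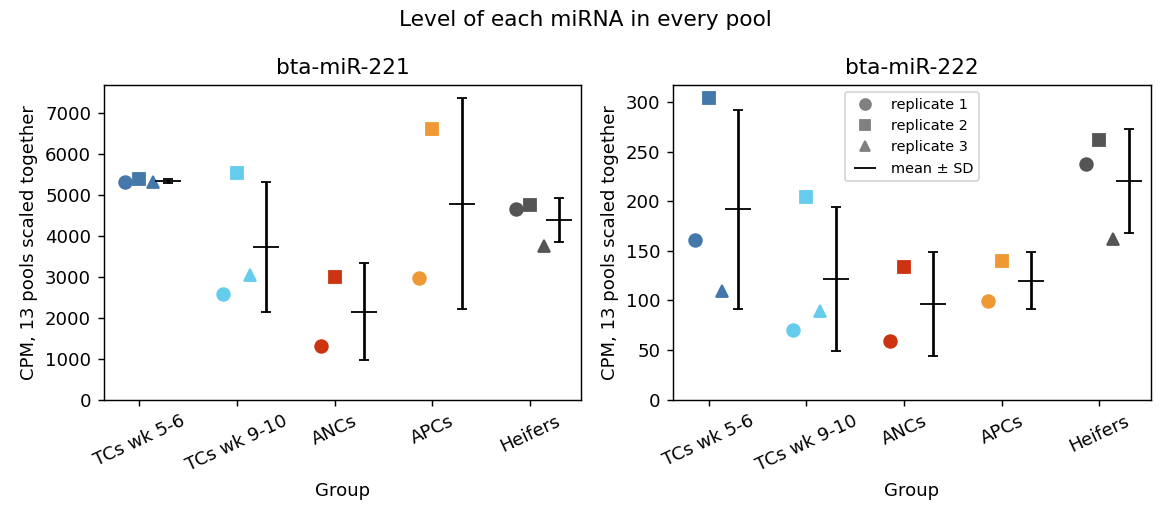
Level of bta-miR-221 (left) and bta-miR-222 (right) in CPM on a linear axis for each of the 13 pools, by group, with all pools scaled together. Symbols mark the replicate number of the labels and black bars the mean ± SD over the 2 or 3 pools of a group, and replicate 1 of the ANCs is the lowest pool in both panels, at 1303 and 59.4 CPM.

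The spread between pools of a group was larger than counting error for both miRNAs. The pooled within-group SD was 0.52 on the log2 scale for bta-miR-221 and 0.64 for bta-miR-222, against 0.044 and 0.23 from counting alone. The median over the 244 miRNAs that passed the low-read filter was 0.57, and 134 of them had a larger SD than bta-miR-221 and 105 a larger SD than bta-miR-222. On this scale replicate 2 was the highest pool of its group for both miRNAs in all 5 groups. This was seen after the values were known. With total reads in place of TMM, replicate 1 exceeded replicate 2 for bta-miR-221 in the early TCs and in the heifers. Replicates 1 had their RNA measured on a different day from replicates 2 and 3 where the study lists the day, and no other batch is given in the labels.

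The study's 6 comparisons were tested, each with its 2 groups scaled together and fitted with limma on log2(CPM + 5). Following the study, a miRNA was called differentially expressed (DE) when its log2 fold change reached 1 in either direction, its p-value stayed under 0.05 and its Benjamini-Hochberg value did not exceed 0.25. Fold changes on the log2(CPM + 5) scale slightly understate those of bta-miR-222. The 3 comparisons with heifers share the heifer pools, and the 3 with ANCs share the ANC pools, so their results are not independent. Scaling by pairs of groups moves the CPM of a pool a little from those given above.

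ANCs, which remained in negative balance, had less of both miRNAs than heifers, at 0.482 of the heifer level for bta-miR-221 and 0.454 for bta-miR-222. ANCs and heifers also differ in calving and lactation, and in this comparison these cannot be told apart from energy balance. bta-miR-221 was 1377 and 3536 CPM in the ANC pools and 4713, 4978 and 4104 CPM in the heifer pools. bta-miR-222 was 62.8 and 159 CPM in the ANC pools and 241, 275 and 177 CPM in the heifer pools. Both ANC pools thus lay below all 3 heifer pools for both miRNAs, and replicate 1 lay furthest below. The means ± SD of bta-miR-221 were 2457 ± 1527 CPM (n = 2) and 4598 ± 449 CPM (n = 3). Its log2 fold change was -1.05 (standard error 0.44, 95% interval -2.08 to -0.03), with p = 0.0452 and adjusted p = 0.215 from limma and p = 0.1 from the exact permutation test. The means ± SD of bta-miR-222 were 111 ± 67.7 CPM and 231 ± 49.8 CPM. Its log2 fold change was -1.14 (standard error 0.48, 95% interval -2.25 to -0.03), with p = 0.0448 and adjusted p = 0.215 from limma and p = 0.1 from the exact permutation test. Both miRNAs were called DE, and 0.1 is the smallest permutation p-value that 2 pools against 3 allow. The study's own list of DE miRNAs for this comparison, made with edgeR, names neither of them. In this comparison 18.6% of the 215 miRNAs tested were called, 12.1% lower and 6.51% higher, and 47.4% did not overlap between the groups. With the values as deposited the split of calls was 4 higher and 41 lower, against 14 and 26, and with median-ratio size factors it was 9 and 29. The deposited ANC values match a scaling together with APCs, so in that setting the heifers need not be on the same scale.

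Both calls lie close to the threshold and rest on replicate 1 of the ANCs. Without that pool the log2 fold change was -0.37 for bta-miR-221 (adjusted p = 0.585 from limma) and -0.50 for bta-miR-222 (adjusted p = 0.527 from limma), and 0 miRNAs were called in this comparison, against 40 with all pools. Leaving out replicate 1 or replicate 2 of the heifers ended both calls, at -1.03 for bta-miR-221 each time and at -1.10 and -1.04 for bta-miR-222, and left 6 and 17 miRNAs called. Leaving out replicate 3 of the heifers ended the call of bta-miR-221, at -1.13. Neither miRNA was called by edgeR's quasi-likelihood test. On the first day of RNA measurement the difference between the single ANC pool and the single heifer pool was -1.83 for bta-miR-221 and -1.91 for bta-miR-222 on the log2 scale. On the second day the differences were -0.50 and -0.60, for 1 ANC pool against 2 heifer pools. With the day as a covariate, the p-values from limma were 0.0608 for bta-miR-221 and 0.054 for bta-miR-222, no longer under the threshold.

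Markers of other cell types moved in the same comparison, in which 12.1% of all 215 miRNAs tested were called lower and 6.51% higher. The marker lists were written with earlier results of these data known. The summed level of 6 leukocyte miRNAs was 745 and 1580 CPM in the ANC pools and 4868 to 6077 CPM in the heifer pools, and all 5 of the tested leukocyte miRNAs were called lower in ANCs. These 5 are also lower in the study's own list from the same pools. The sum of 9 epithelial miRNAs was 5542 and 8858 CPM in ANCs and 17330 to 27150 CPM in heifers, with 6 of 9 called lower. bta-miR-122, the liver miRNA, was 329 and 2926 CPM in ANCs and 5369 to 17620 CPM in heifers, and it was called lower. Both of the tested red cell miRNAs were called lower, with sums of 131 and 1145 CPM in ANCs and 1717 to 3958 CPM in heifers. bta-miR-451, which defines red cells, had 0 reads in replicate 1 of the ANCs. By contrast, the 2 strands of miR-126, the defining endothelial miRNA, summed to 1498 and 1439 CPM in ANCs and 1059 to 1764 CPM in heifers, and 0 of 2 were called. Per the study's methods, fluid with blood contamination was left out and the fluid was spun to remove cells before the vesicles were isolated. The part of these markers in the difference of bta-miR-221 and bta-miR-222 was not tested. In fluid, fewer vesicles from a cell type and less of a miRNA per vesicle cannot be told apart.

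Against the TCs sampled at the same weeks, bta-miR-221 did not overlap between the groups and yet was not called. It was 1209 and 3090 CPM in the ANC pools and 5331, 5516 and 5003 CPM in the TC pools. The means ± SD were 2150 ± 1330 CPM (n = 2) and 5284 ± 260 CPM (n = 3). The log2 fold change was -1.45 (standard error 0.45, 95% interval -2.52 to -0.38), with p = 0.0153 and adjusted p = 0.399 from limma, and the exact permutation p-value was 0.1. bta-miR-222 was 55.1 and 139 CPM in the ANC pools and 162, 312 and 104 CPM in the TC pools, so that the higher ANC pool exceeded the lowest TC pool. For bta-miR-222 the log2 fold change was -0.95 (95% interval -2.44 to 0.55, adjusted p = 0.582 from limma). limma, edgeR's quasi-likelihood test and DESeq2 each called 0% of 225 miRNAs here, while 18 (8.0%) had an unadjusted p-value under 0.05 from limma and 27.1% did not overlap. Without replicate 2 of the ANCs the difference of bta-miR-221 was -2.12 and was called, as were 7 miRNAs in all, and without replicate 1 it was -0.76 and was not called.

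The comparison of the 2 constant groups, ANCs and APCs, asks how energy balance relates to the miRNAs among lactating cows at the same weeks. bta-miR-221 was 1219 and 2818 CPM in the ANC pools and 2788 and 5866 CPM in the APC pools. The higher ANC pool and the lower APC pool were nearly equal, so the groups overlapped. The means ± SD were 2018 ± 1131 and 4327 ± 2177 CPM (n = 2 each). The log2 fold change was -1.12 (95% interval -2.72 to 0.48, adjusted p = 0.563 from limma). bta-miR-222 was 55.6 and 126 CPM in the ANC pools and 93.9 and 125 CPM in the APC pools, and the highest pool of each group was nearly the same. The corresponding log2 fold change was -0.34 (95% interval -1.82 to 1.13, adjusted p = 0.809 from limma). The exact permutation p-values were 0.667 and 1, where 2 pools against 2 cannot go below 0.333. limma and edgeR's quasi-likelihood test called 0% of 207 miRNAs and DESeq2 called 6, while 8.21% had an unadjusted p-value under 0.05 from limma and 43.5% did not overlap. The intervals of both members include a change of 2-fold, so equal levels are not shown either. With the replicate number as a block, bta-miR-221 was called at the same log2 fold change of -1.12 (adjusted p = 0.181 from limma), as were 28 miRNAs in all. That model has only 2 pools per group from which to estimate both the block and the spread, and no label says what the numbers mark. Without replicate 1 of the APCs bta-miR-221 was called, at -1.66, as were 36 miRNAs in all, and 21 and 7 miRNAs were called without replicate 2 of the ANCs and of the APCs.

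Compared with heifers, APCs showed no called difference in either miRNA. bta-miR-221 was 3093 and 6510 CPM in the APC pools, which lay on both sides of the heifer pools at 4093, 4323 and 3564 CPM. Its log2 fold change was 0.17 (95% interval -0.82 to 1.17, adjusted p = 0.866 from limma). bta-miR-222 was 104 and 138 CPM in the APC pools and 209, 239 and 154 CPM in the heifer pools, with no overlap. For bta-miR-222 the log2 fold change was -0.69 (95% interval -1.58 to 0.20, adjusted p = 0.418 from limma) and the exact permutation p-value was 0.2. Of the 233 miRNAs tested 36.1% did not overlap and 12.4% were called, 22 higher and 7 lower. These results depend on the scaling. With total reads in place of TMM the median log2 fold change of all miRNAs went from 0.03 to -0.54 and the calls became 14 higher and 49 lower. bta-miR-222 was then called, at -1.26, and bta-miR-221 was at -0.42. With the values as deposited the median was -0.31, the calls were 21 higher and 28 lower, bta-miR-222 was called at -1.04 and bta-miR-221 was at -0.18. The deposited APC values match a scaling together with ANCs, so the heifers need not be on their scale, and this setting cannot decide the call. Without replicate 2 of the APCs, bta-miR-221 was at -0.36. The count of 29 calls was 3 without replicate 1 of the heifers and 45 to 48 without either APC pool or replicate 3 of the heifers.

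In the early TCs against heifers, bta-miR-221 did not overlap, and its means ± SD were 5311 ± 90.4 and 4388 ± 588 CPM (n = 3 each). The log2 fold change was 0.28 (95% interval -0.22 to 0.79, adjusted p = 0.503 from limma), and the exact permutation p-value was 0.1, the smallest possible. The interval excludes a rise of 2-fold. With total reads in place of TMM the log2 fold change of bta-miR-221 was 0.08. Its pools then overlapped, with replicate 3 of the TCs at 4252 CPM and replicate 1 of the heifers at 5123 CPM. bta-miR-222 overlapped, with means ± SD of 191.5 ± 102 and 220.9 ± 54.8 CPM. The corresponding log2 fold change was -0.30 (95% interval -1.33 to 0.74, adjusted p = 0.743 from limma), and it was 0.08 without replicate 3 of the TCs. Of the 230 miRNAs tested 22.2% did not overlap, 17.4% had an unadjusted p-value under 0.05 and 6.96% were called, 4 higher and 12 lower. Median-ratio size factors gave 6 higher and 7 lower. The 16 calls became 29 when the replicate number entered the model as a block and 0 when the day of RNA measurement did, and neither member was called in either model. Leaving out replicate 1 or 3 of the TCs, or replicate 1 or 2 of the heifers, also left 0 calls, whereas 46 were made without replicate 2 of the TCs and 29 without replicate 3 of the heifers.

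Between weeks 5 and 6 and weeks 9 and 10 the TCs went from negative to positive balance, and the differences of both miRNAs were within the spread between pools. Both times drew on the transient cows, so some animals may be in both, and the 2 times were fitted as unpaired groups. The means ± SD of bta-miR-221 were 3743 ± 1428 CPM late and 5378 ± 313 CPM early (n = 3 each). Its log2 fold change was -0.59 (95% interval -1.35 to 0.18, adjusted p = 0.573 from limma). The means ± SD of bta-miR-222 were 122 ± 67.2 CPM late and 194.5 ± 108 CPM early. The corresponding log2 fold change was -0.65 (95% interval -1.90 to 0.60, adjusted p = 0.693 from limma). Both overlapped between the times, since replicate 2 of the late TCs was as high as early pools while the other 2 late pools were below all early pools in both miRNAs. limma and edgeR's quasi-likelihood test called 0% of 224 miRNAs and DESeq2 called 8, while 5.36% had an unadjusted p-value under 0.05 from limma and 13.4% did not overlap. Without replicate 2 of the early TCs limma called 22 miRNAs, neither member among them.

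**Figure D2:**
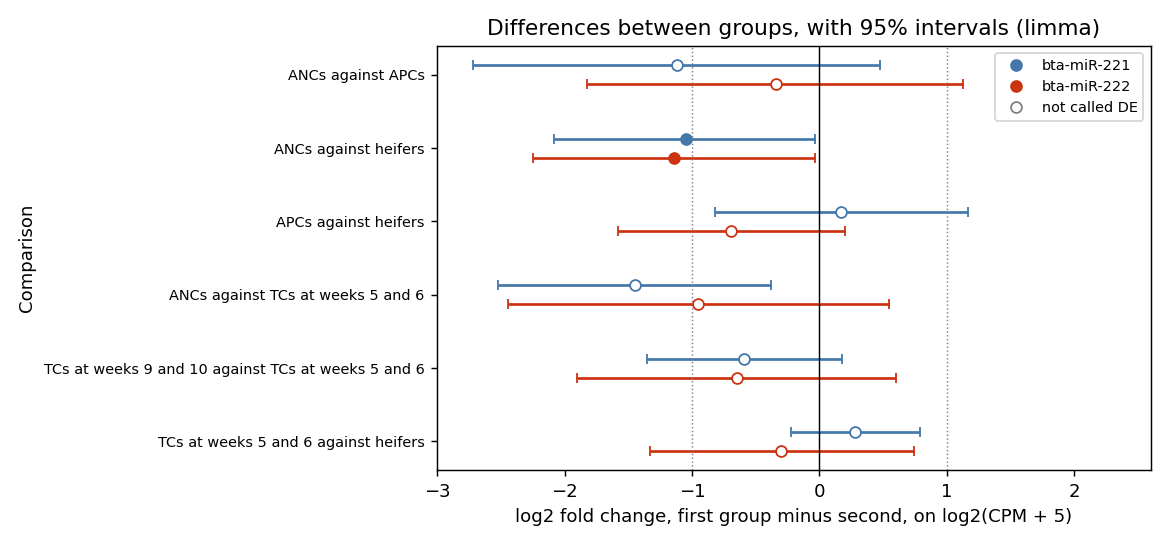
Log2 fold change of bta-miR-221 (blue) and bta-miR-222 (red) in the 6 comparisons, first group minus second, with 95% intervals from limma. Filled points are called DE, dotted lines mark the fold change threshold, and the 2 filled points are those of ANCs against heifers, at -1.05 and -1.14.

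The 2 miRNAs come from a common transcript, and the ratio of their reads in a library needs no scaling between libraries. All pools had far more bta-miR-221, with 16585 reads against 625 over the 13 pools. The ratio ranged from 17.7 to 48.2 reads of bta-miR-221 per read of bta-miR-222, with a median of 27.0. It was 33.0, 17.7 and 48.2 in replicates 1, 2 and 3 of the early TCs. It was 36.4, 27.0 and 34.1 in the late TCs. The heifers had 19.6, 18.1 and 23.2, and the early TCs alone covered the whole range of the other pools. The ANCs had 21.9 and 22.3 and the APCs 29.7 and 47.0. The ratio was thus low in all heifer and ANC pools and higher in all APC and late TC pools.

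The counting interval around each ratio was wide. bta-miR-222 made up 5.36% of the pair's reads in replicate 2 of the early TCs (exact 95% binomial interval 4.41% to 6.44%) and 2.03% in replicate 3 (1.39% to 2.86%), so these 2 pools of a group differed beyond counting error. In the ANCs it made up 4.36% (2.46% to 7.09%) and 4.29% (2.64% to 6.55%). The geometric mean ratio was 37.4 in APCs, 32.3 in the late TCs, 30.4 in the early TCs, 22.1 in ANCs and 20.2 in heifers. Between APCs and heifers the mean log2 ratio was 5.22 ± 0.47 and 4.34 ± 0.18, a difference of 0.89 with no overlap (exact two-sided permutation p = 0.1, the smallest possible, and 0.6 after Benjamini-Hochberg adjustment over the 6 comparisons). Between ANCs and APCs it was 4.47 ± 0.02 and 5.22 ± 0.47, a difference of -0.76 with no overlap (exact permutation p = 0.333, the smallest possible, adjusted 0.6). The mean log2 ratio of ANCs and heifers differed by 0.13, within the spread between pools (exact permutation p = 0.4). The other 3 comparisons overlapped, with differences of -0.46, 0.09 and 0.59 and exact permutation p-values of 0.4 to 0.8. With these numbers of pools the exact permutation test used for the ratio cannot reach a p-value under 0.05.

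**Figure D3:**
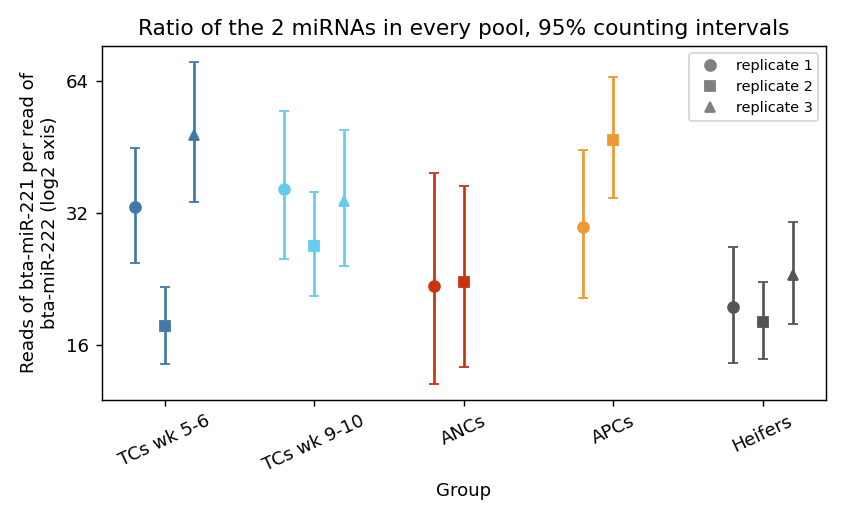
Reads of bta-miR-221 per read of bta-miR-222 in each pool, on a log2 axis, by group. Symbols mark the replicate number and bars are exact 95% binomial intervals that cover counting error only, and the heifer pools lie at 18.1 to 23.2 while the APC pools lie at 29.7 and 47.0.

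Across the 13 pools the 2 miRNAs varied together on log2(CPM + 5), with Pearson's r = 0.75 (permutation p = 0.0027) and Spearman's rho = 0.69 (permutation p = 0.012). This was the single relation tested. The relation was also seen in deviations from the group means (r = 0.76, permutation p = 0.003, and rho = 0.81, permutation p = 0.0013). Deviations within a group are tied to each other through its mean. The permutation treated them as independent, so these 2 p-values are too small. Without the 2 pools farthest from the median of bta-miR-221, which were replicate 1 of the ANCs and replicate 1 of the late TCs, r was 0.52 (permutation p = 0.11) and rho 0.48 (permutation p = 0.14), so the relation rests in part on those pools. Without the ANC pool alone, r was 0.64 (permutation p = 0.026).

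Other miRNAs followed each member more closely than its cluster partner did. Among 243 other miRNAs, bta-miR-222 ranked 15th in likeness to bta-miR-221, and bta-miR-221 ranked 10th in likeness to bta-miR-222. The 5 nearest to bta-miR-221 were bta-miR-142-5p (r = 0.92), a miRNA of blood cells, bta-miR-27a-3p (r = 0.91), bta-miR-147 (r = 0.85), bta-miR-150 (r = 0.82), a lymphocyte miRNA, and bta-miR-145 (r = 0.79), a smooth muscle miRNA. The 5 nearest to bta-miR-222 were bta-miR-205 (r = 0.89), bta-miR-200b (r = 0.86), bta-miR-200c (r = 0.84) and bta-miR-429 (r = 0.82), which are all epithelial miRNAs, and bta-miR-142-5p (r = 0.80). The median r over all 243 was 0.01 for bta-miR-221 and -0.04 for bta-miR-222. These are the highest of many correlations over 13 pools that share their libraries and scaling, and they are given as a description.

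The leading likeness of each member was also present within groups and without the lowest pool, in the same pools that were used to pick it. For deviations from the group means, r was 0.98 for bta-miR-221 with bta-miR-142-5p and 0.96 for bta-miR-222 with bta-miR-205. Without replicate 1 of the ANCs they were 0.83 and 0.85. bta-miR-142-5p ranged from 265 to 2570 CPM over the pools, and bta-miR-205 from 349 to 4450 CPM. For bta-miR-150, r fell from 0.82 to 0.63 without the ANC pool, for bta-miR-147 from 0.85 to 0.72 and for bta-miR-145 from 0.79 to 0.71. bta-miR-147 was as low as 3.96 CPM in a pool.

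Sums over the marker lists were compared with both members in the same way. bta-miR-142-5p and bta-miR-150 are in the leukocyte list, and bta-miR-205, bta-miR-200b, bta-miR-200c and bta-miR-429 are in the epithelial list. The leukocyte sum had r = 0.80 with bta-miR-221 and 0.75 with bta-miR-222, and the epithelial sum 0.74 and 0.87. Without replicate 1 of the ANCs these were 0.61 and 0.65 for leukocytes and 0.73 and 0.84 for epithelium. The red cell sum had r = 0.48 with bta-miR-221, which turned to -0.08 without that pool. The endothelial sum had r = 0.29 and 0.32. The liver miRNA bta-miR-122 had r = 0.74 and 0.73, which were 0.49 and 0.61 without that pool. bta-miR-202, the gonadal miRNA, had r = -0.76 and -0.56, and was 7016 and 8014 CPM in the ANC pools against 2982 to 6364 CPM in the other 11 pools. What part the source cells have in these patterns was not tested.

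**Figure D4:**
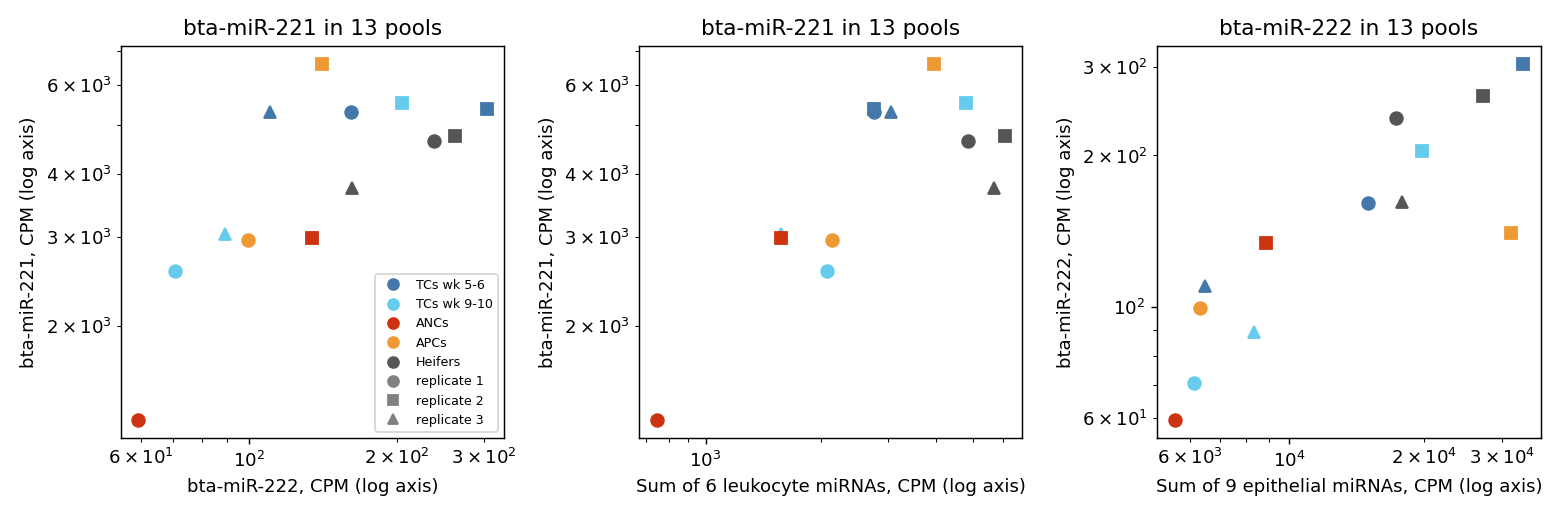
Each point is 1 of the 13 pools on log axes in CPM, coloured by group with the replicate number as the symbol. bta-miR-221 is plotted against bta-miR-222 (left, r = 0.75) and against the summed leukocyte miRNAs (middle, r = 0.80), and bta-miR-222 against the summed epithelial miRNAs (right, r = 0.87), with replicate 1 of the ANCs in the lower left corner of each panel.

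Because both members are known for their role in vessels, 28 other miRNAs that act in endothelium or vessel growth were followed, among them both strands of miR-126. All 28 were listed in every group. In ANCs against heifers 28 were tested, of which 2 were called higher and 3 lower, with a median log2 fold change of 0.27 against 0 over all miRNAs, of which 6.51% were called higher and 12.1% lower. These 5 calls among 28 stand against 18.6% of all miRNAs called in either direction, so the share in the list was close to the background. The lower ones were bta-miR-132, which promotes the angiogenic switch of endothelium and is induced by gonadotropins in granulosa cells, at 93.8 and 2750 CPM (log2 fold change -3.61, adjusted p = 0.128 from limma), bta-miR-155, an inflammatory miRNA that is also in the leukocyte list, at 325 and 1380 CPM (-1.95, adjusted p = 0.0749), and bta-miR-18a at 14 and 76.1 CPM (-2.31, adjusted p = 0.0971). The higher ones were bta-miR-424-5p at 2020 and 656 CPM (1.66, adjusted p = 0.0749) and bta-miR-92a at 61000 and 27600 CPM (1.20, adjusted p = 0.128). The cluster that gives bta-miR-18a also gives bta-miR-92a, and the 2 differed in opposite directions. Whether all reads of bta-miR-92a come from that cluster was not tested. Other listed miRNAs of that cluster were not called, at -0.52 for bta-miR-17-5p, 0.69 for bta-miR-19a, 0.53 for bta-miR-19b and 0 for bta-miR-20a. bta-miR-18a was near the floor in the ANC pools, where 3 reads stood at 11.1 and 19.0 CPM as deposited. All 5 calls were lost without replicate 1 of the ANCs, where the log2 fold changes were -3.70, -1.78, -1.48, 1.56 and 1.04 in the order given.

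In APCs against heifers 4 of the 28 were called higher and 0 lower, with a median log2 fold change of 0.20 against 0.03 over all miRNAs, of which 9.44% were called higher and 7 of 233 lower. They were bta-miR-130a (2.67, adjusted p = 0.0882 from limma), bta-miR-23a (2.07, adjusted p = 0.0568), bta-miR-23b-3p (2.52, adjusted p = 0.0568) and bta-miR-296-3p (1.15, adjusted p = 0.173). bta-miR-296-3p was not called with total reads (0.56) or with the values as deposited (0.80), and none of the 4 was called without replicate 1 of the heifers. In the early TCs against heifers 1 was called higher, bta-miR-130a (2.03, adjusted p = 0.222 from limma), and 2 lower, bta-miR-155 (-1.63, adjusted p = 0.196) and bta-miR-18a (-1.36, adjusted p = 0.222), against 1.74% called higher and 5.22% called lower over all miRNAs. These 3 were not called with the day as a covariate. In the remaining 3 comparisons limma called 0 members of the list, as it called 0 of all miRNAs. The summed level of the list had r = 0.15 with bta-miR-221 and -0.41 with bta-miR-222.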

How the data were processed

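Small RNA of EVs was sequenced from 13 pools, 1 library each. Per the study's methods, QIAseq miRNA libraries were trimmed (Cutadapt 1.11) and aligned to UMD3.1 with Bowtie2 (2.2.2). Whether the molecular identifiers of the kit were counted is not given in the sources used here. The values deposited by the authors are TMM-scaled CPM, not logged. Those of the ANC and APC pools matched a joint scaling of these groups. For bta-miR-221 in replicate 1 of the ANCs, 1218.9 CPM was deposited and 1219 CPM was recomputed. Deposited values of different groups therefore need not share a scale. Libraries whose deposited values sum to more than plain CPM allow were recorded as a signal, being reads divided by a size factor, and the totals ran from 822818.3 to 1251163.8. Dividing each of the 3681 values by what 1 read is worth in its library (2.64 to 6.32 CPM) gave a whole number within 0.1 reads every time.

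The recovered reads of the miRNAs that both groups list were rescaled by TMM (edgeR 4.0.16) for each pair of groups. After filterByExpr (minimum count 10, minimum total count 15), limma 3.58.1 with a trend was run on log2(CPM + 5) in R 4.3.3 and was tested on simulated data. The alternatives were edgeR's quasi-likelihood test and DESeq2 1.42.0 on the recovered reads, other scalings, the deposited values, no filter, a pseudocount of 1, a single fit of all pools, the day of RNA measurement, the replicate block and leaving out each pool. Single values were compared by exact permutation tests and correlations by 100000 permutations.

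Groups and replicate numbers come from the labels. Same-numbered pools deviated together in TCs at weeks 5 and 6 against heifers (r across miRNAs of 0.22, 0.38 and 0.39), and in no other comparison with 3 pairs. This pairing comes from the data, since no label says what the numbers mark. Where the study lists the day of RNA measurement, replicates 1 share the first day and replicates 2 and 3 the second. The members were chosen by name, the nearest patterns as the 5 highest values of Pearson's r, and the vessel miRNAs as those called DE. The members and lists were chosen with earlier results of these data known. Gene order was read from RefSeq, whose assembly differs from UMD3.1, so no coordinate or sequence is given.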

Additional observations from a re-analysis of the deposited data

How the results depend on the processing

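The 12 member differences were recomputed 178 times, and 155 kept their direction and their side of the threshold, while 6 changed direction, 12 lost the call and 5 gained one, and of 179 values of the vessel miRNAs 140 kept their call and direction, 39 lost the call and 0 changed direction. All 12 losses among the members fell on the 2 differences called in ANCs against heifers, since the others had no call to lose. Most of the 155 kept were differences without a call that stayed so. The cause was not tested for any of these changes. In ANCs against heifers, bta-miR-221 and bta-miR-222 lost the call with edgeR's quasi-likelihood test (-0.91 and -1.11) and with the day of RNA measurement (-0.96 and -1.06), and bta-miR-221 did so with DESeq2 (-0.94). With total reads per library, bta-miR-222 was 0.04 in ANCs against APCs, and in APCs against heifers bta-miR-221 was -0.42 and bta-miR-222 -1.26, with 63 calls. With the values as deposited the last 2 were -0.18 and -1.04, with 49 calls. Deposited values need not share a scale across groups, and in ANCs against APCs they only repeat the main fit. In the early TCs against heifers the 16 calls became 36 with DESeq2, 26 with total reads and 0 with the day. DESeq2 made 6 calls in ANCs against APCs and 8 between the TC weeks. With the replicate block, calls went from 0 to 28 in ANCs against APCs, where bta-miR-221 was called at -1.12, from 40 to 65 in ANCs against heifers, from 0 to 2 in ANCs against TCs, and from 16 to 29 in the early TCs against heifers. The block changed no other call of a member. Outside the early TCs against heifers the deviations of same-numbered pools had correlations of -0.10 to 0.22, and no label says what a number marks beyond the day of RNA measurement that the study lists for 12 of the 13 pools. Leaving out each pool in turn gave, for bta-miR-221 and then bta-miR-222, -1.74 to -0.51 and -0.92 to 0.22 in ANCs against APCs, -1.68 to -0.37 and -1.73 to -0.50 in ANCs against heifers, -0.36 to 0.71 and -0.89 to -0.50 in APCs against heifers, -2.12 to -0.76 and -1.58 to -0.31 in ANCs against TCs, -0.88 to -0.31 and -1.05 to -0.24 between the TC weeks, and 0.17 to 0.41 and -0.55 to 0.08 in the early TCs against heifers. A lone pool left in a group is then assumed to vary like those of the other group. The counts of calls ranged in the same order from 0 to 36, 0 to 54, 3 to 48, 0 to 7, 0 to 22 and 0 to 46, and the difference of the log2 ratio from -1.09 to -0.42, 0.05 to 0.23, 0.56 to 1.22, -0.85 to -0.13, -0.30 to 0.42 and 0.26 to 0.98. The correlation of the members was 0.52 without the 2 pools farthest from the median of bta-miR-221 and 0.64 without replicate 1 of the ANCs, the last chosen after seeing the data, as were all alternatives for the vessel miRNAs. bta-miR-222 had as few as 15 reads in a pool, which limits the precision of its level and of the ratio. The day could not be fitted with APCs, since it is not listed for replicate 2.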
